A study of Mus musculus with 4 samples.

Results

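The minus-strand cytosines outside light-strand genes belong to RNA copied from mouse mitochondrial DNA (mtDNA) in the direction opposite to most of its genes. They are every minus-strand position of the authors' table except those inside the 9 genes coded in that direction (ND6 and the genes TrnQ, TrnA, TrnN, TrnC, TrnY, TrnS1, TrnE and TrnP), which left 1879 of 5988 listed positions. Of these, 1241 lie opposite heavy-strand mRNA genes, 410 opposite ribosomal RNA (rRNA) genes, 116 opposite transfer RNA (tRNA) genes, 104 in the control region and 8 in gaps between genes. The libraries came from liver of wild-type mice (WT1 and WT2) and of NSUN2-/- mice (KO1 and KO2), 2 per genotype, all from RNA enriched for mitochondria, depleted of rRNA and treated with DNase and bisulfite. The libraries were made with a kit for small RNA. The labels used here give no strain, age, sex or description of the NSUN2 allele, and nothing in them ties a library to an animal, so p-values measure only the spread between these libraries, which may be technical. The table holds mitochondrial positions only, so neither the loss of Nsun2 RNA nor markers of liver cells could be checked. In bisulfite sequencing unmethylated cytosines are read as thymine while 5-methylcytosine (m5C) is still read as cytosine, and the methylation level here is the share of reads with a cytosine.

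Both strands of mtDNA are transcribed into long RNAs that span many genes, and tRNAs are cut out of them. The RNA started at the light-strand promoter in the control region carries few genes, and most of its length is antisense to heavy-strand genes and is known, from human cells, to be degraded by a mitochondrial complex of the helicase SUV3 and the nuclease PNPase. NSUN2 is a methyltransferase known for placing m5C in tRNAs. The title of the series concerns its action on mitochondrial tRNAs, and the question for the antisense strand is where its RNA was found and whether any of it was methylated.

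Each cytosine covered by a read is counted as 1 call, so a read is counted once for every cytosine it spans. The minus-strand cytosines outside light-strand genes took 10.99% of the 89915 calls of WT1, 17.04% of the 45449 of WT2, 14.0% of the 99431 of KO1 and 2.59% of the 453470 of KO2. KO2 stood apart, because 79.9% of its calls fell on 2 positions of mt-Rnr1, the gene of the small rRNA, against 20.5% to 22.7% in the other libraries. Without those positions the shares were 14.2%, 21.5%, 17.5% and 12.9%. The mean share of calls was 14.0% ± 4.28 (SD, n = 2) for wild type, while the knockout mean was 8.27% ± 8.04 (SD, n = 2). The groups overlapped (exact permutation test, two-sided, p = 0.667; the smallest p from 2 libraries against 2 is 0.333), and the direction of this difference turned with the denominator: counting minus-strand calls alone it was 2.65 percentage points higher in the knockout, against -5.75 points over all calls. The strand column was checked on the light-strand genes, where 92.4% to 100% of calls in each library lay on the minus strand. Intervals are exact (Clopper-Pearson) 95% intervals. They and the limits given for 0 methylated reads (3 counts of the coverage) cover counting error only, since the sources used here describe no molecular identifiers. Intervals on calls summed over cytosines take calls as independent. A read gives a call at each cytosine it spans, so those intervals can be too narrow.

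Antisense reads lay in few places. No read covered 1331 of the 1879 cytosines in any library, 155 had a read in every library, and 54 had at least 10 reads in every library. Of the 26 heavy-strand genes with listed cytosines opposite them, 12 had no antisense read in any library: the mRNA genes COX2, ATP8, ATP6, COX3, ND3 and ND4L, the tRNA genes TrnF, TrnD, TrnK, TrnG and TrnR, and mt-Rnr1. Another 9 had antisense reads in every library, namely ND1, ND2, COX1, ND4, ND5, CYTB, mt-Rnr2, TrnW and TrnH. For TrnW, all reads in WT1, WT2 and KO2 lay at position 5016, 2 nucleotides beyond the end of TrnA. They may be tRNA ends. The 27 positions listed without a strand lie in TrnV and TrnL1, and no minus-strand cytosine of these genes could be counted.

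**Figure D1:**
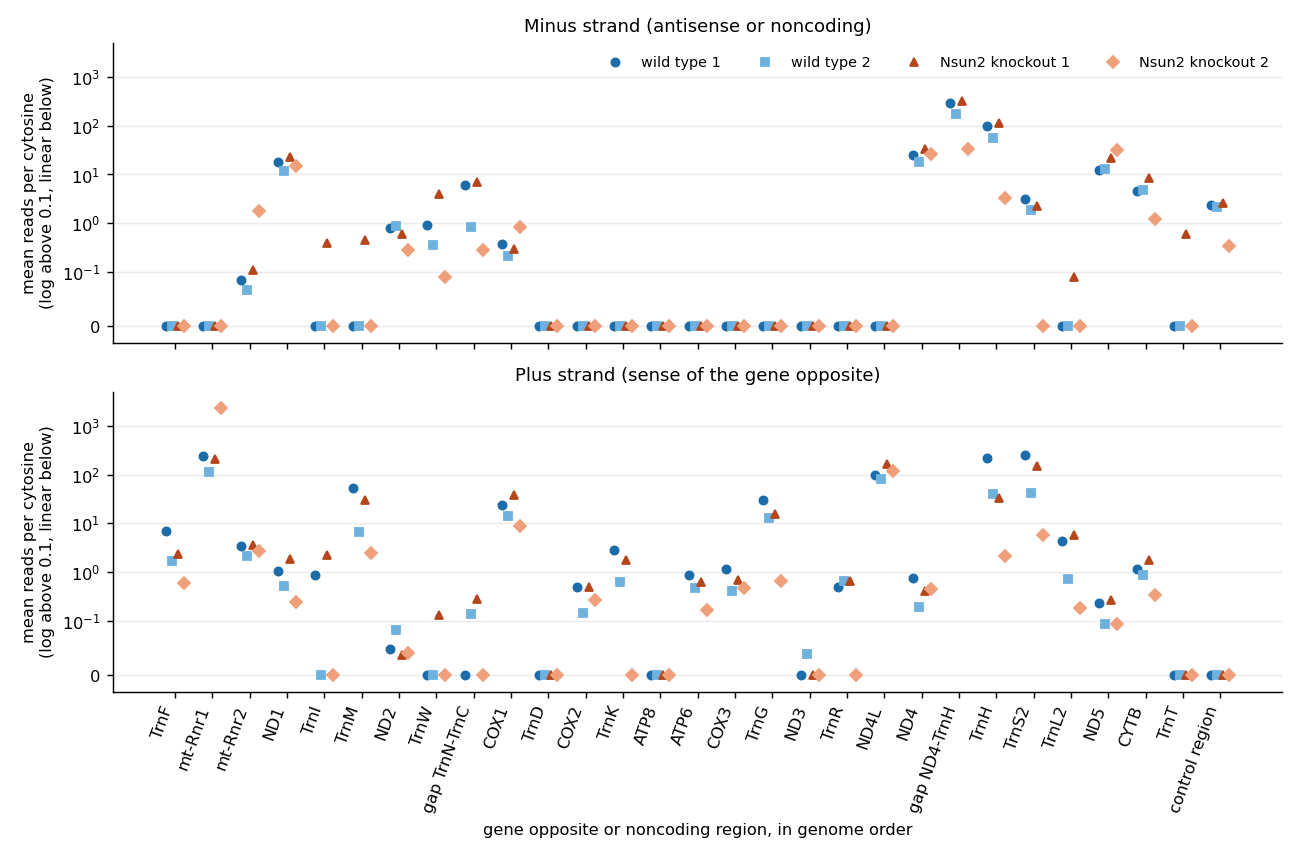
Mean reads per listed cytosine of the minus strand (top) and of the plus strand (bottom) by gene opposite or noncoding region, in genome order; points are libraries, the axis is logarithmic above 0.1 and linear below, and the gap between ND4 and TrnH has no plus-strand cytosine. Antisense reads lie opposite ND1, ND4, TrnH, ND5 and CYTB, among other regions, and none lie from TrnD to ND4L.

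The longest run without an antisense read spanned 548 listed cytosines, from position 6300 in COX1 to position 11007 in ND4, which is 29.2% of all the minus-strand cytosines described here. On the plus strand of the same run, 399 of 1156 cytosines had reads, up to 561 in WT1, 467 in WT2, 998 in KO1 and 1020 in KO2. The run thus held sense RNA, mostly of ND4L, a subunit of respiratory complex I, whose sense cytosines had 96.5, 80.1, 165.5 and 120.2 reads on average in WT1, WT2, KO1 and KO2. The second run held 218 cytosines, from 1167 to 2461 opposite mt-Rnr2, the gene of the large rRNA. The third held 164 cytosines, from 7 to 1018 opposite TrnF and mt-Rnr1, where sense calls numbered 45147 in WT1, 20858 in WT2, 39685 in KO1 and 425287 in KO2. Further along mt-Rnr2, antisense reads were rare in 3 libraries and not in KO2. Per cytosine mt-Rnr2 had 0.0859 antisense reads in WT1, 0.0664 in WT2, 0.109 in KO1 and 1.77 in KO2, against 2.11 to 3.67 sense reads. Most of those in KO2 lay between 2473 and 2505, where coverage reached 59 reads in KO2 and at most 3 elsewhere.

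Opposite several genes of complex I and of CYTB, a subunit of complex III, antisense reads outnumbered sense reads per cytosine. ND5 had 12.3 antisense reads per cytosine in WT1, 12.8 in WT2, 21.4 in KO1 and 31.0 in KO2, against 0.236, 0.0949, 0.271 and 0.0949 sense reads. ND4 had 25.4, 18.3, 33.9 and 26.4 antisense reads in the same order, against 0.761, 0.192, 0.406 and 0.456 sense reads. ND1 had 18.3, 11.8, 22.7 and 14.9 antisense reads against 1.05, 0.530, 1.88 and 0.241. In all 3 genes the antisense mean lay above the sense mean in every library, by 12.1-fold (ND1 in KO1) to 327-fold (ND5 in KO2). In KO2, 4816 of the 5586 antisense ND5 calls lay on a pair of neighbouring cytosines, so the 327-fold value rests mostly on that pair. That pair held 278 of 2218 antisense ND5 calls in WT1, 376 of 2297 in WT2 and 590 of 3857 in KO1. For ND1, 83 nucleotides held 2001 of 2026 antisense calls in WT1, 1284 of 1307 in WT2 and 2489 of 2520 in KO1. In KO2 they held all 1659. For ND4, position 11515 alone held 1326 of 3410 antisense calls in WT1 and 977 of 2448 in WT2. It held 1938 of 4542 in KO1 and 1000 of 3539 in KO2.

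CYTB had 4.66, 4.89, 8.34 and 1.20 antisense reads per cytosine against 1.14, 0.867, 1.75 and 0.344 sense reads in WT1, WT2, KO1 and KO2. ND2, another complex I gene, was low on both strands, with 0.289 to 0.868 antisense and at most 0.0833 sense reads per cytosine. COX1, a subunit of complex IV, was the reverse case, with 0.217 to 0.827 antisense reads and 8.74 to 38.8 sense reads. These comparisons describe 4 libraries of short fragments and were not tested.

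Opposite tRNA genes the reads were concentrated on TrnH, the histidine tRNA, which had 97.9 antisense reads per cytosine in WT1, 56.1 in WT2, 114.9 in KO1 and 3.38 in KO2. Its sense cytosines had 215.1, 40.3, 33.3 and 2.15 reads, so the order of the strands differed between libraries. TrnS2, the next tRNA, had 3.11, 1.89, 2.22 and 0 antisense reads against 253.2, 42.2, 151.7 and 5.80 sense reads. Antisense reads opposite TrnI, TrnM, TrnL2 and TrnT appeared in KO1 only among the 4 libraries, at 0.0909 to 0.600 reads per cytosine. KO2 was the lowest of the 4 libraries opposite TrnH and TrnS2 on both strands.

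The genes copied together with these cytosines give a reference for their level. The light-strand genes had 60.5 reads per cytosine in WT1, 12.5 in WT2, 93.8 in KO1 and 8.15 in KO2, against 5.26, 4.12, 7.39 and 6.24 for the minus-strand cytosines outside them. Most of the former came from TrnA, the alanine tRNA, with 572.6, 107.0, 934.6 and 60.9 reads per cytosine. ND6, the single light-strand mRNA and a complex I subunit, had 1.00, 0.645, 2.81 and 1.23, below the antisense cytosines of ND1, ND4 and ND5 in every library. TrnN and TrnY had no read.

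Covered stretches were defined as runs of cytosines with at least 10 reads summed over the libraries, joined where neighbours were at most 30 nucleotides apart. There were 24, holding 189 cytosines, and the first 5 by calls held 84.2%, 82.0%, 84.1% and 91.3% of the calls on these cytosines in WT1, WT2, KO1 and KO2. All 5 lay opposite ND1, ND5, or ND4 and the tRNA genes next to it.

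**Figure D2:**
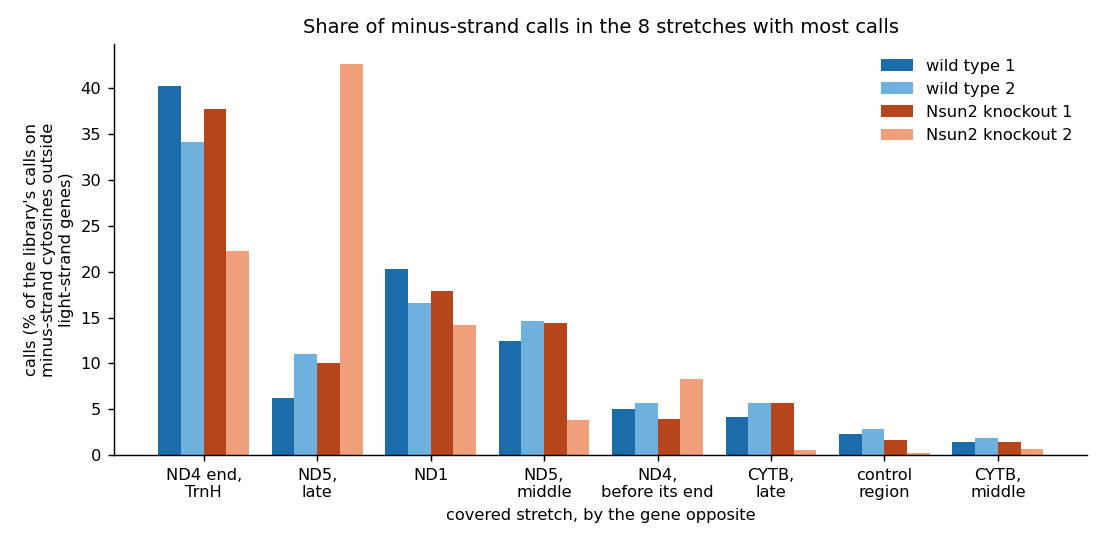
Share of each library's calls on minus-strand cytosines outside light-strand genes that fell in each of the 8 stretches with most calls, as bars per library (no error bars, 1 value per library). The stretch at the end of ND4 and TrnH leads in WT1, WT2 and KO1, and the late ND5 stretch leads in KO2 at 42.7%.

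The stretch with most calls ran from 11515, near the end of ND4, through TrnH to 11619 in TrnS2 and held 40.2%, 34.1%, 37.7% and 22.3% of these calls in WT1, WT2, KO1 and KO2. Its first cytosine, 11515, had 1326, 977, 1938 and 1000 reads, the most of any cytosine described here in WT1, WT2 and KO1. Coverage fell along it, to 543, 361, 707 and 719 reads at 11532, to 290, 172, 325 and 33 at 11545 between the genes, and to 23, 13, 29 and 0 at 11591 in TrnH. The listed cytosine before the stretch, 11478, lay 37 nucleotides away and had at most 1 read in any library. The stretch thus began abruptly on its low-coordinate side and lost reads toward the other in every library. The course differed in KO2, which fell least from 11515 to 11532, by a ratio of 1.39 against 2.44 to 2.74 in the other libraries, and then dropped from 693 to 141 reads between 11533 and 11537.

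The ND1 stretch from 3141 to 3223 also had most reads on its low-coordinate side, but as a plateau with a steep fall. At 3141 it had 274, 172, 340 and 236 reads in WT1, WT2, KO1 and KO2, and the previous listed cytosine, 3114, had none. Reads were still 258, 154, 318 and 218 at 3159 and then 33, 30, 46 and 15 at 3177, the next listed cytosine. The middle ND5 stretch from 12384 to 12542 had 82, 55, 142 and 59 reads at 12396. It held 12.5%, 14.6% and 14.4% of the calls on these cytosines in WT1, WT2 and KO1 and 3.90% in KO2. ND5 was also the mRNA gene with the widest antisense cover, since 174 of its 180 minus-strand cytosines had a read in some library, against 43 of 111 opposite ND1 and 46 of 134 opposite ND4. Of the 20 stretches with more than 1 cytosine, 8 had more reads at the first than at the last cytosine in every library and 0 had fewer in every library. Minus-strand RNA runs toward lower coordinates, so in those 8 stretches the end with more reads is the 3′ end. A joined stretch can hold more than 1 peak. In the middle ND5 stretch WT2 had 55 reads at 12384, 12 at 12436 and 99 at 12447.

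**Figure D3:**
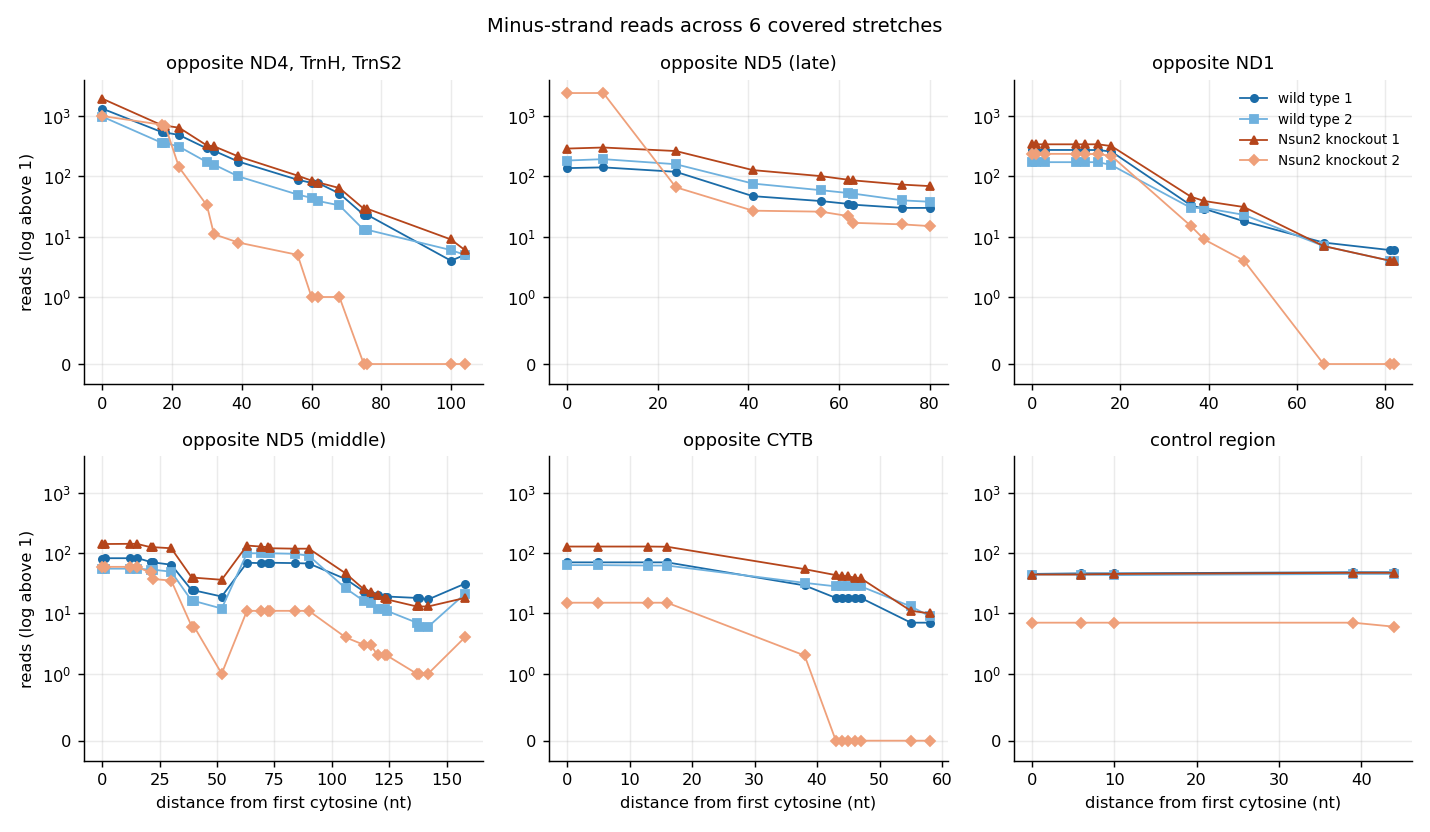
Reads at each minus-strand cytosine of 6 covered stretches against the distance in nucleotides from the first (lowest) cytosine; lines are libraries and the axis is logarithmic above 1. Reads are highest at or near the first cytosine opposite ND4, ND1 and CYTB and level in the control region, and KO2 drops from 2410 to 66 reads between neighbouring cytosines of the late ND5 stretch.

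The control region, which holds the light-strand promoter, had reads on 39 of its 104 minus-strand cytosines and none on its plus-strand cytosines in any library. Most lay in 1 stretch of 5 cytosines from 16136 to 16180. Its coverage was flat, with 45 to 48 reads in WT1, 43 to 45 in WT2, 44 to 47 in KO1 and 6 to 7 in KO2. The listed cytosines on either side, 16115 and 16191, had no read, so this stretch had steep ends on both sides. It held 2.36%, 2.85% and 1.64% of the calls on these cytosines in WT1, WT2 and KO1 and 0.290% in KO2. Of its calls 1 was methylated, at 16142 in WT2.

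Opposite CYTB, the stretch from 15116 to 15174 had 70, 63, 128 and 15 reads at its first cytosine, and the stretch from 14712 to 14773 had 25, 29, 37 and 14. Neither held a methylated read in any library. At 15116 this allows a level of up to 4.29% in WT1, 4.76% in WT2, 2.34% in KO1 and 20% in KO2.

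A few cytosines lie just outside light-strand tRNA genes. Position 5016, opposite TrnW and 2 nucleotides beyond the end of TrnA, had 10, 4, 33 and 1 reads in WT1, WT2, KO1 and KO2, where the nearest TrnA cytosine had 1129, 212, 1917 and 127. Position 5191, in the gap that holds the light-strand replication origin and 1 nucleotide beyond the end of TrnC, had 31, 6, 39 and 2 reads, where the nearest TrnC cytosine had 48, 10, 47 and 2. WT1 and KO1 had most reads at both positions, as at the tRNAs beside them, and whether these reads are antisense RNA or tRNA ends cannot be told apart in a table of positions. The other 6 cytosines of that gap had at most 2 reads in any library.

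Methylation on these cytosines was low outside a pair of neighbours opposite ND5. Of 112 methylated reads over the 4 libraries, 64 lay at positions 13168 and 13176, and only 30 of the 1879 cytosines had any. The 54 cytosines that passed the coverage minimum of 10 reads in each library were summed. Of their calls 0.483% were methylated in WT1 (interval 0.340% to 0.665%), 0.430% in WT2 (0.281% to 0.630%), 0.144% in KO1 (0.0820% to 0.233%) and 0.205% in KO2 (0.129% to 0.310%). Neither knockout value reached a wild-type one. The wild-type mean was 0.457% ± 0.0375 (SD, n = 2) and the knockout mean 0.174% ± 0.0436 (SD, n = 2), with an exact permutation p of 0.333 (two-sided), the smallest possible.

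Without the pair at 13168 and 13176 the genotypes overlapped. The other 52 cytosines had 0.217% methylated calls in WT1, 0.0882% in WT2, 0.104% in KO1 and 0.0846% in KO2 (exact permutation p = 0.667). Sense mRNA cytosines of the same libraries had 0.203%, 0.0775%, 0.0799% and 0.0809% over 59 cytosines with the same coverage. The 54 antisense and noncoding cytosines lay above that by 0.205 percentage points on average, in 4 of 4 libraries (two-sided exact sign-flip permutation p = 0.125, the smallest that 4 libraries allow), and the other 52 by 0.0131 points, also in 4 of 4 libraries. In each library the sense mRNA share lay inside the counting interval of the other 52, which in WT1 ran from 0.124% to 0.352%. These intervals take calls as independent, so they can be too narrow. No interval of the difference itself was computed.

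At position 13168, nucleotide 1427 along ND5 counted from its annotated start, methylated reads numbered 11 of 137 in WT1 (8.03%, interval 4.08% to 13.9%) and 13 of 183 in WT2 (7.10%, 3.84% to 11.8%). They numbered 3 of 289 in KO1 (1.04%, 0.215% to 3.003%) and 10 of 2406 in KO2 (0.416%, 0.199% to 0.763%). The knockout intervals lay below the wild-type intervals at this position. At position 13176, 8 nucleotides further on, they numbered 10 of 141 in WT1 (7.09%), 8 of 193 in WT2 (4.15%, interval 1.81% to 8.004%), 2 of 301 in KO1 (0.664%, interval 0.0806% to 2.38%) and 7 of 2410 in KO2 (0.290%). There the intervals of WT2 and KO1 overlapped, while both knockout levels were below both wild-type levels. Coverage at the pair was nearly equal and reads can span both, so the 2 positions are not independent.

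Both positions fell in the knockout by edgeR's quasi-likelihood test over all 152 cytosines of both strands with at least 10 reads in every library. At 13168 the wild-type mean was 7.57% ± 0.654 (SD, n = 2) and the knockout mean 0.727% ± 0.440 (SD, n = 2), and knockout minus wild type was -6.84 percentage points (edgeR adjusted p = 0.00114). At 13176 they were 5.62% ± 2.08 and 0.477% ± 0.264 (SD, n = 2), a difference of -5.14 points (edgeR adjusted p = 0.00257). On summed reads the differences were -7.02 points (Newcombe interval -10.4 to -4.58) and -5.06 points (-8.03 to -3.08). These were 2 of 54 tested cytosines outside light-strand genes. They were also the only ones called lower among all 152 tested cytosines (1.32%). None of the 54 was called higher by edgeR, limma or Fisher's exact test, and 2 had an unadjusted edgeR p under 0.05, both lower. Over the 54 the median difference was 0, with 12 below 0, 9 above and 33 at 0, and over all 152 it was also 0, with 46 below and 32 above.

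The calls did not hold under every fit. They were lost in limma fitted to log2 odds (adjusted p = 0.43 at each position), in edgeR once replicate numbers entered as a block (adjusted p = 0.157 and 0.212) and with edgeR's newer bias-adjusted fit (adjusted p = 0.0854 for both). Leaving out WT1 gave edgeR adjusted p-values of 0.0746 at 13168 and 0.223 at 13176, leaving out KO1 0.285 and 0.331, and leaving out KO2 0.383 and 0.785, with differences of -7.15 to -3.67 points. A minimum of 10 reads per genotype in place of per library tested 124 of these cytosines among 482 of both strands (1.04% called lower), and outside light-strand genes it called the same 2 positions and no others.

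**Figure D4:**
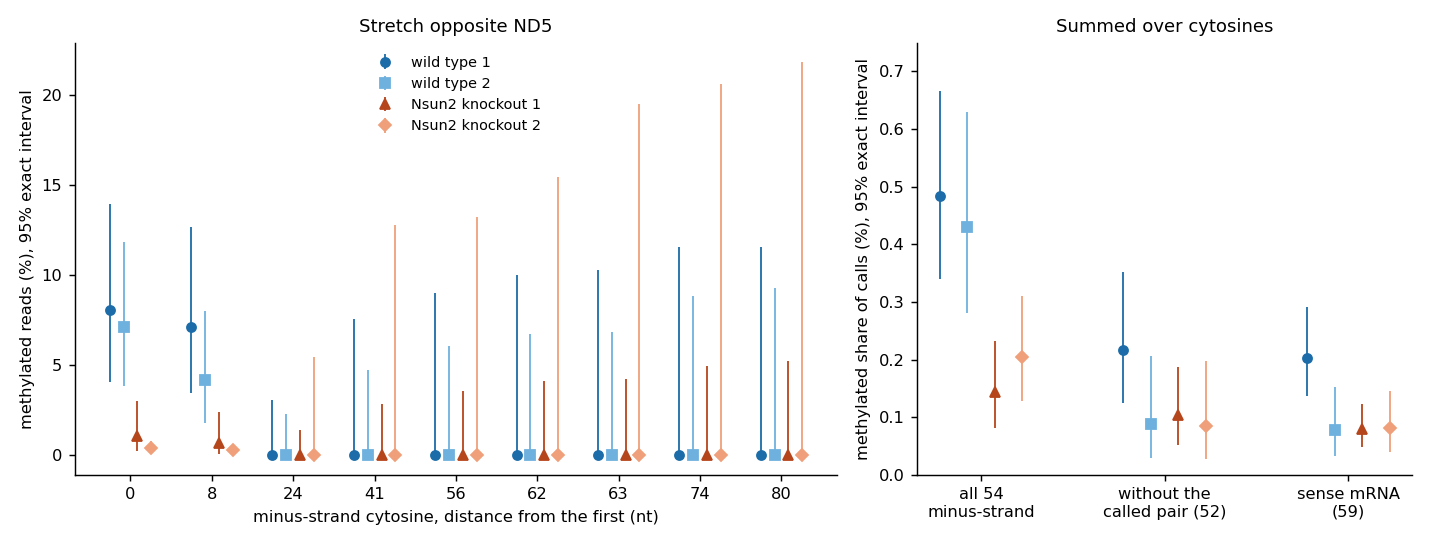
Left, methylation level with its exact 95% interval at the 9 cytosines of the late ND5 stretch, by distance in nucleotides from the first; right, methylated share of calls with its exact 95% interval, summed over all 54 tested cytosines, without the pair called lower, and over 59 sense mRNA cytosines. Points are libraries, and methylated reads appear at the first 2 cytosines only of the 9.

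The pair opens the late ND5 stretch, which runs from 13168 to 13248. Position 13176 lies 376 nucleotides beyond the annotated end of ND6 in the direction of light-strand transcription. Its next cytosine, 13192, had 0 methylated reads of 119 in WT1, 159 in WT2, 263 in KO1 and 66 in KO2, which allows up to 2.52%, 1.89%, 1.14% and 4.55%. The remaining 6 cytosines of the stretch had no methylated read in any library. Methylated reads were thus seen at 2 of the 9 cytosines, those on the low-coordinate side.

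Coverage of the pair differed between libraries in shape as well as amount. From 13176 to 13192 reads went from 141 to 119 in WT1, 193 to 159 in WT2 and 301 to 263 in KO1, a ratio of 1.14 to 1.21, but from 2410 to 66 in KO2, a ratio of 36.5. The pair held 2.81%, 4.85% and 4.25% of the calls on minus-strand cytosines outside light-strand genes in WT1, WT2 and KO1 and 41.05% in KO2. ND5 as a whole held 22.4%, 29.7%, 27.8% and 47.6% of them, and 20.2%, 26.1%, 24.6% and 11.1% without the pair. The level in KO1, where coverage fell by a ratio similar to wild type, was 1.04% at 13168 against 7.10% to 8.03% in wild type. At 13176 it was 0.664% against 4.15% to 7.09%, and there the intervals of KO1 and WT2 overlapped. Whether the different coverage of KO2 has a part in its level was not tested.

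Among the other cytosines, 8 reached 2% in a genotype with at least 10 summed reads. They were 11169, 11182 and 11205 opposite ND4, 12504, 12984 and 13004 opposite ND5, 14826 opposite CYTB and 5016 opposite TrnW, and each rested on 1 or 2 methylated reads in that genotype. The highest was 9.09% at 13004 in the knockout, 1 of 11 reads, with an interval from 0.230% to 41.3%. At 11515, the deepest cytosine of the leading stretch, 5 of 1326 reads were methylated in WT1 (0.377%), 1 of 977 in WT2 (0.102%), 2 of 1938 in KO1 (0.103%) and 1 of 1000 in KO2 (0.1%). The interval of WT1, 0.123% to 0.878%, overlapped those of the other libraries. The other ND4 stretch, from 11089 to 11268, had 5 methylated calls in WT1 (0.996%), 2 in WT2 (0.454%), 1 in KO1 (0.183%) and 1 in KO2 (0.103%). Both wild-type values lay above both knockout values on 9 methylated calls in all, and none of its cytosines was called. WT1 had 1 methylated call each at 11169, 11173, 11174 and 11182, with 40 to 41 reads. WT2 had 1 each at 11169 and 11182, with 40 reads. Calls so close can come from the same read, which counts per position cannot show. At 3141 opposite ND1 no read was methylated, which allows up to 1.09%, 1.74%, 0.882% and 1.27% in WT1, WT2, KO1 and KO2.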

How the data were processed

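The submitters' processing notes name Trim Galore and Bismark and the build GRCh38, a human build, although the samples are mouse. The authors deposited counts, and the versions of these tools are not given in the sources used here. Per the file headers, the table gives m5C and C reads per mtDNA position and library, with no normalization. Level was m5C reads over the sum of both. Position numbers are those of the table, which run from 7 to 16297, and gene bounds come from the NCBI annotation of GRCm38.p6 (37 mitochondrial genes). Coding strands are textbook knowledge. A position inside overlapping genes was given to the first.

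Differences in level were tested by edgeR's quasi-likelihood test (edgeR 4.0.16, R 4.3.3) of the counts of both read classes, with library, methylation state and the genotype interaction as terms, no replicate block and a negative binomial dispersion without a trend, over every stranded cytosine with at least 10 reads in every library, adjusted by Benjamini-Hochberg. A call was an adjusted p under 0.05. The quasi-likelihood dispersion was left with its trend and the older (legacy) fit was used: this setting was chosen after results were seen, to match an earlier analysis of the same data, and the fit first run had no such trend. Library values were compared by exact permutation tests (Python 3.11.15), intervals came from scipy 1.17.1 and statsmodels 0.14.6, and limma 3.58.1 used a pseudocount of 0.5. The tests were tested on simulated reads. Sites named were those called, those of at least 2% with at least 10 reads in a genotype (at most 20) and the deepest site of the 8 stretches with most calls; neighbours of these were named after their values were seen. These cytosines, lists and tests were chosen with earlier results of the same data known. Replicates of a genotype differed in calls over 11 regions (chi-square 223 in wild type and 2967 in the knockout, 10 degrees of freedom), so none was treated as a duplicate. This statistic takes calls as independent, though a read gives a call at each cytosine it spans, so it can overstate the difference. No sequence is printed, because no mitochondrial genome was used here.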

Additional observations from a re-analysis of the deposited data

Results flagged for a closer look

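Among cytosines with too few reads in some library to be tested, 2 had a library with 2 methylated reads. At 5016, opposite TrnW and next to TrnA, 2 of 33 reads of KO1 were methylated (6.06%, exact 95% interval 0.743% to 20.2%), and none of 10, 4 and 1 reads of WT1, WT2 and KO2. At 11571, opposite TrnH, 2 of 88 reads of WT1 were methylated (2.27%, interval 0.276% to 7.97%), and none of 50, 103 and 5 reads of WT2, KO1 and KO2.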

How the results depend on the processing

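The count of cytosines called lower in the knockout, 2 with the chosen fit, was 0 with limma, with the replicate block, at a coverage minimum of 30, when a 10-point difference was required, in a fit over these cytosines alone and with edgeR's bias-adjusted fit. With single libraries omitted it lay between 0 and 2 (2 only without WT2), and it was 2 in the remaining settings, among them Fisher's exact test on summed reads. The fit first run, with a quasi-likelihood dispersion without a trend, gave 2 calls and was kept as an alternative when the reported fit was chosen, after results were seen. The bias-adjusted fit was also added after seeing the data, and the causes of the lost calls were not tested. The replicate numbers are not stated to pair the libraries, and deviations of same-numbered libraries were nearly uncorrelated (r = 0.0319 over 152 cytosines). The fit over these cytosines alone, which called neither position, is left out of the per-position values at 13168 and 13176. Among the other alternatives fitted with all 4 libraries the lowest adjusted p was 2.79e-13 at 13168 and 4.86e-10 at 13176. Both came from Fisher's exact test on reads summed over a genotype, which ignores the spread between libraries. The highest was 0.43 at each position, from limma. The adjusted p was under 0.05 in 6 of the 13 alternatives kept for each position. The difference was negative in all 13, but could not have been otherwise. Fit and coverage settings leave the library levels unchanged, and both knockout levels lay below both wild-type levels. The count of cytosines called higher was 0 in all 16 alternatives. In limma 3 of the 54 had an unadjusted p under 0.05, counted in both directions. Among these were 13168 and 13176, both lower in the knockout. The knockout minus wild type difference in the share of calls, -5.75 points, turned to 2.65 with minus-strand calls as the denominator and to 5.81 without sense rRNA calls, and was -11.4 to -0.0611 without single libraries. The number of covered stretches, 24, became 45 with a joining distance of 15 nucleotides. KO2 had at most 7 reads at any control-region cytosine, too few to show a difference in level there.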
